A study of Mus musculus with 22 samples.

Results

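The genes described here belong to the blood-brain barrier: 8 transporters (Slco1a4, Slco1c1, Slc2a1, Slc16a1, Slc7a5, Abcb1a, Abcg2 and Mfsd2a) and 2 tight junction genes (Cldn5 and Ocln). They were chosen by name, and all 10 were present among the 13685 genes of a single-cell count table of mouse hippocampus. Single-cell suspensions had been run through Drop-seq, which captures each cell with a barcoded bead and reads the 3′ end of its transcripts. All 22 animals carried the strain label Fvb/B6 and fell into 6 groups by genotype and age. There were 5 old WT animals (32 to 40 weeks), 4 old rTg4510 (32 to 38 weeks), 3 old P301L (41 to 48 weeks), 3 old rTta (33 weeks), 4 young WT (5 to 6 weeks) and 3 young rTg4510 (4 to 5 weeks). Ages are those of the sample labels, and the series' design text gives a younger range for the young animals. The rTg4510 line is a tauopathy model in which a transactivator under the Camk2a promoter, active in forebrain excitatory neurons, switches on a human tau transgene with the P301L mutation. WT animals were littermates negative for both transgenes. The names P301L and rTta stand for animals with the tau responder or the transactivator alone, although the labels do not spell this out. That promoter is not an endothelial one. Labels give the animals no replicate numbers, so the replicate numbers below only name animals.

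Capillaries of the brain are lined by endothelial cells that are sealed to each other by tight junctions, so that polar molecules cross only on carriers. Glucose, lactate, amino acids, thyroid hormone and lysophosphatidylcholine each have a dedicated carrier in this membrane, and ATP-driven pumps return many lipophilic compounds to the blood. The endothelium is also graded along the vessel: arteries, capillaries and veins differ in the carriers they make, and the capillary bed carries most nutrient transport.

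Slco1c1 and Slco1a4 are neighbours on chromosome 6 of the build GRCm38: Slco1c1 at chr6:141524368-141570177 on the plus strand and Slco1a4 at chr6:141805440-141856199 on the minus strand, 235262 bases apart. Abcg2 lies on the same chromosome at chr6:58584523-58695676. Slc2a1 (chr4:119108711-119137983) and Mfsd2a (chr4:122946850-122961188) share chromosome 4. Slc16a1 lies at chr3:104638668-104658462, Abcb1a at chr5:8660077-8748575, Slc7a5 at chr8:121881150-121907694, Ocln at chr13:100496507-100552718 and Cldn5 at chr16:18776847-18778262. These positions are those of the GENCODE gene models.

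The 250 bases before the RefSeq start are shown for 4 members because their promoters differ in base composition while all 4 genes were highest in the same cells. The sequences are RefSeq's for GRCm38.p6, written 5′ to 3′ on the strand of the gene. Capitals mark a match to CTTTGA (the core bound by TCF/LEF factors, which act in Wnt signalling) or to GGGCGG (the GC box), read on both strands.
Slco1a4, chr6:141856221-141856470, minus strand: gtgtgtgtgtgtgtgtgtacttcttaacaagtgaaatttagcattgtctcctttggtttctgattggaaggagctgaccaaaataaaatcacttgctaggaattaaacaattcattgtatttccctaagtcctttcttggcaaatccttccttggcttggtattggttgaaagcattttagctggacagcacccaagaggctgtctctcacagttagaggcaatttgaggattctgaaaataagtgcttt
Slco1c1, chr6:141524104-141524353, plus strand: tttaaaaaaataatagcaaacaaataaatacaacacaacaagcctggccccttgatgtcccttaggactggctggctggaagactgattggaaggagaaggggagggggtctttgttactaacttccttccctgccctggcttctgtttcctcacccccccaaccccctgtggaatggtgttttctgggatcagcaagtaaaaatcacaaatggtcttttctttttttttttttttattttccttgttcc
Mfsd2a, chr4:122961189-122961438, minus strand: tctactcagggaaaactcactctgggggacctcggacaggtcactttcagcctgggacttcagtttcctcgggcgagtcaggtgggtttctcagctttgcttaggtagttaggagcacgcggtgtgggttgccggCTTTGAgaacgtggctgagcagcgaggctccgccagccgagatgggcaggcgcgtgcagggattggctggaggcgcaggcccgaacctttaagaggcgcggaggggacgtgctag
Cldn5, chr16:18776597-18776846, plus strand: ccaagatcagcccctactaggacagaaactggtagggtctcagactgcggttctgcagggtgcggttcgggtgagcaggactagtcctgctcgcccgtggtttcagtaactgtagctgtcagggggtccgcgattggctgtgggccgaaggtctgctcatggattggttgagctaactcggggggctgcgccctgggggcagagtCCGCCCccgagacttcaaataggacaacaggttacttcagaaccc
The windows of Slco1a4 and Slco1c1 held 0 CG pairs and were 39.2% and 42.8% G or C. The windows of Mfsd2a and Cldn5 held 17 and 12 CG pairs and were 61.6% and 59.6% G or C. Over all 32851 promoter windows of the same length the medians were 6 CG pairs and 52.4%. The table held windows for 9 of the 10 genes, 12 windows in all, and none for Slc7a5. Windows are not the same as genes here, as Abcg2 and Ocln had more of them than the other genes. CTTTGA or its reverse TCAAAG was found in 2 of the 12, those of Mfsd2a and Abcb1a, and in 13.8% of all windows. The Abcb1a window, at chr5:8566841-8567090, lies far upstream of the GENCODE start at 8660077, as RefSeq places the start of this gene elsewhere. GGGCGG or its reverse CCGCCC was found in 7 of the 12 (in Abcg2, Cldn5, Ocln, Slc16a1 and Slc2a1) and in 32.7% of all windows. CCGGAAG (ETS factors) or CTTCCGG was found in 0 of the 12 and in 6.91% of all windows, and ACAATGG (SOX factors) or CCATTGT in 0 and in 3.02%.

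Counts per animal summed to between 780831 and 6039656, and 27198 barcodes with at least 300 counts were clustered without any of the 10 genes or other barrier genes, so that the genes took no part in defining the cell classes. The cluster named endothelial held 1941 cells, 21 to 199 per animal, and exceeded the remaining clusters by 2-fold or more for 19 of 19 endothelial markers, among them Flt1 at 2337 ± 690.4 CPM (SD, n = 22) and Pecam1 at 548 ± 157. CPM, the usual unit of counts scaled to a common library total, is not scaled to gene length, so levels are compared here within a gene only. By the same measure it exceeded them for 8 of 12 markers of mural cells, the pericytes and smooth muscle that wrap the vessel, and 245 of its barcodes held at least as many marker counts of another class as of their own. Barcode sequences shared between libraries numbered 219, of which 32 endothelial barcodes carried one.

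All 10 genes had their highest mean level in endothelial cells among the 12 named classes. Endothelial cells made up 7.14% of the kept cells, but they held on average 89.4% ± 8.08 (SD, n = 22) of the Cldn5 counts of an animal, 86.8% ± 10.2 of the Abcb1a counts and 82.3% ± 18.3 of the Slco1a4 counts. For Mfsd2a the share was 39.8% ± 13.6 and for Slc16a1 45.1% ± 16.9. These are descriptions of the classes, with no test.

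Cldn5 encodes claudin-5, the strand-forming protein that seals brain endothelium against small molecules. It stood at 2694 ± 1162 CPM (SD, n = 22) in endothelial cells, with a lowest animal at 985, a median of 2733 and a highest at 4443. The next class, mural cells, stood at 32.6 ± 30.5 CPM (n = 18), 82.7-fold lower, and endothelial cells were above mural cells in 18 of 18 animals. Ocln encodes occludin, a junction protein found in epithelia as well as endothelia. Its endothelial level was 166 ± 41.8 CPM, and it also stood at 73.8 ± 13.4 CPM (n = 5) in choroid plexus epithelium, 61.0 in the lowest and 93.5 in the highest animal. Ependymal cells, counted in only 1 animal with 20 or more of them, held 16 Ocln counts or 109.6 CPM, with an exact 95% Poisson interval of 62.6 to 178 that covers counting error only. The 2 junction genes thus differed in their spread: Cldn5 reached 10% of its endothelial level in 0 of the 11 other classes, and Ocln in 2, both epithelial.

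The organic anion carriers are transporters of thyroid hormone, steroid conjugates and drugs. Slco1c1, which carries thyroxine, stood at 2606 ± 837 CPM (SD, n = 22) in endothelial cells, 907 ± 198 (n = 5) in choroid plexus and 503 ± 217 (n = 22) in astrocytes. The choroid plexus values of the 5 animals lay between 669 and 1193 CPM, and the astrocyte values between 194 and 1021. Its neighbour Slco1a4 stood at 1491 ± 438 CPM in endothelial cells, 112 ± 9.91 (n = 5) in choroid plexus while in astrocytes its median was 7.33 and its highest animal 31.6 (n = 22). Endothelial cells were highest in 22 of 22 animals for both neighbours, and astrocytes reached 10% of the endothelial level for Slco1c1 but not for Slco1a4.

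Slc2a1, the glucose carrier GLUT1, stood at 1404 ± 329 CPM in endothelial cells and at 115 ± 34.3 in astrocytes (SD, n = 22 for both). In the ependymal cells of 1 animal it held 71 counts, or 486 CPM (exact 95% Poisson interval 379.8 to 613). Slc16a1 encodes the monocarboxylate carrier MCT1, which moves lactate and ketone bodies. It was at 713 ± 345 CPM in endothelial cells, and the next class was oligodendrocytes, in which MCT1 is known to supply axons with lactate, at 112 ± 34.9 CPM (n = 22). Endothelial cells exceeded oligodendrocytes in 22 of 22 animals. Slc16a1 was the member with the widest spread, reaching 10% of its endothelial level in 4 of 11 other classes. Slc7a5, the large neutral amino acid carrier LAT1, stood at 329.6 ± 225 CPM in endothelial cells and at 33.9 ± 22.7 (n = 20) in oligodendrocyte precursors.

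Abcb1a encodes the efflux pump P-glycoprotein and Abcg2 the breast cancer resistance protein pump. Abcb1a stood at 1855 ± 529 CPM in endothelial cells and at 164 ± 124 (SD, n = 4) in fibroblasts of the meninges and vessel walls. Abcg2 stood at 508 ± 125 CPM (n = 22) in endothelial cells and at 254 ± 252 (n = 4) in fibroblasts. The 4 fibroblast values of Abcg2 were 627, 117, 88.7 and 186 CPM, so that 1 animal, old WT replicate 4, set the mean, and there fibroblasts exceeded endothelial cells. Mfsd2a is the lysophosphatidylcholine carrier that brings docosahexaenoic acid into the brain and restrains transcytosis in capillaries. It stood at 363 ± 182 CPM in endothelial cells, 168 ± 90.3 (n = 20) in oligodendrocyte precursors and 109 ± 68.2 (n = 22) in astrocytes. Endothelial cells exceeded the precursors in 18 of the 20 animals that had both. In oligodendrocyte precursors Mfsd2a was at 325, 296, 252 and 93.4 CPM in the young WT animals and at 167, 169, 204, 105 and 128 in the old WT animals, so that the ranges overlapped. It was at 328 and 254 CPM in 2 young rTg4510 animals and at 44.3, 148 and 74.1 in 3 old rTg4510 animals, from 4 to 64 counts per animal. These did not overlap, but groups of 2 and 3 animals often separate by chance. The share of all genes without overlap was not counted in these cells. Neither age difference was tested in these cells.

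**Figure D1:**
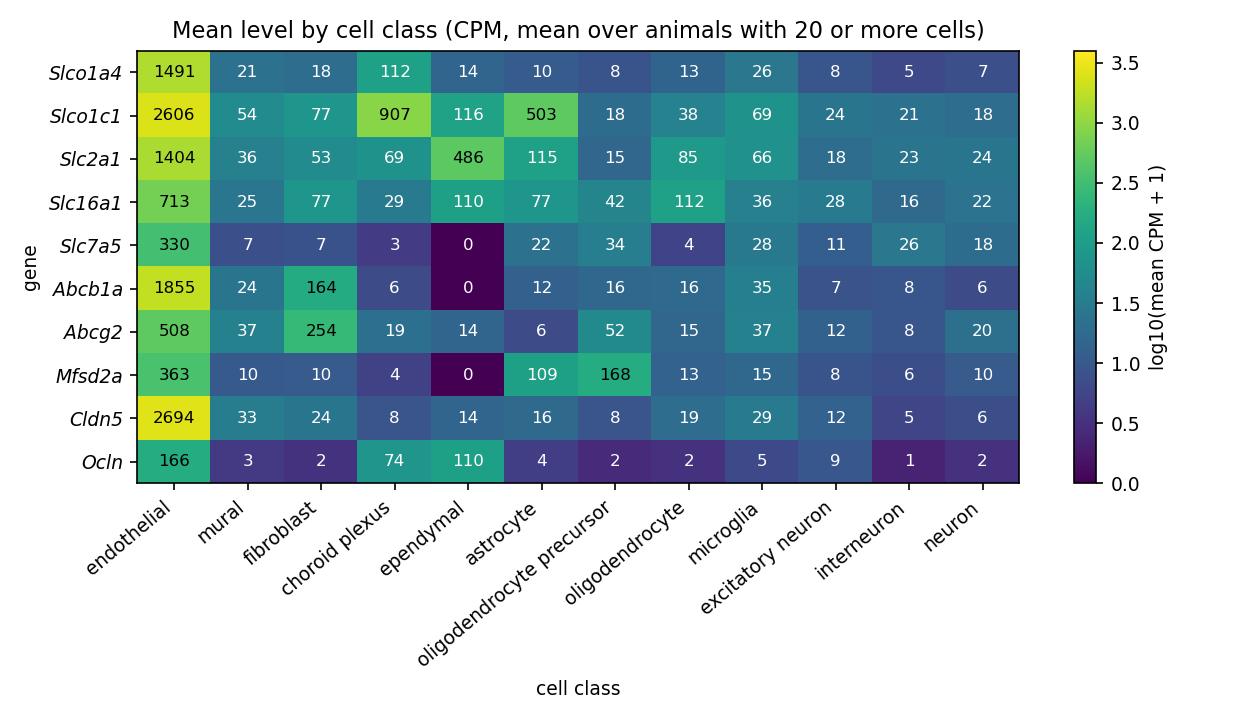
Mean level of each gene (rows) in each named cell class (columns), in CPM averaged over the animals with 20 or more cells of the class and coloured on a log10 scale. Every gene is highest in the endothelial column, with Slco1c1 also at 907 in choroid plexus and 503 in astrocytes, and Mfsd2a at 168 in oligodendrocyte precursors.

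The genes whose class profile was most like the mean profile of the members were Kdr, Sox17, Xdh, Ushbp1 and Erg. Their Pearson correlations with it over the 12 classes were 0.97, 0.97, 0.97, 0.97 and 0.96, among 8580 genes compared on log2(mean CPM + 10). Kdr is the VEGF receptor of endothelium, and Sox17 and Erg are endothelial transcription factors. Kdr and Erg were also among the markers that named the endothelial class, and Sox17 is among the barrier regulators listed below. The 12 points share the same libraries, and the values are a description.

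Groups were compared within endothelial cells on counts summed per animal, with edgeR's quasi-likelihood test over 3949 genes in 1 fit of all 6 groups and Benjamini-Hochberg adjustment. A gene is called when its adjusted p is under 0.05. In old rTg4510 against old WT animals, 0 of the 10 members were called, and 0% of all genes tested were called. At an unadjusted p under 0.05 there were 1 of the 10 members and 183 of all genes, and DESeq2 also called 0 members and 0 genes. The largest difference among the members was that of Slco1a4. It stood at 1769, 1547, 1037 and 2446 CPM in the old rTg4510 animals and at 1078, 1412, 1148, 673 and 1143 in the old WT animals. The lowest old rTg4510 animal lay inside the WT range and the other 3 above it. Its log2 difference was 0.66 ± 0.26 (SE; 95% interval 0.13 to 1.18; edgeR adjusted p = 0.988).

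Cldn5 stood at 3677, 2011, 997 and 3592 CPM in the old rTg4510 animals and at 2301, 1566, 2356, 1582 and 3524 in old WT. The groups overlapped over most of their range, and the log2 difference was 0.17 with a 95% interval of −0.57 to 0.92. For Mfsd2a, at 378, 432, 57.9 and 551 CPM against 427, 276, 181, 168 and 587, the log2 difference was 0.01 with an interval of −1.25 to 1.28. Slc7a5 had the widest interval, −1.50 to 1.74 around 0.12, and Slc2a1 the narrowest, −0.44 to 0.57 around 0.07. The intervals for Slc2a1, Abcg2, Ocln, Slc16a1, Slco1c1, Abcb1a and Cldn5 excluded differences of more than 1 on the log2 scale in either direction, while those for Slc7a5, Mfsd2a and Slco1a4 did not. The median over the 10 members was 0.07, beside 0.01 over all genes tested.

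**Figure D2:**
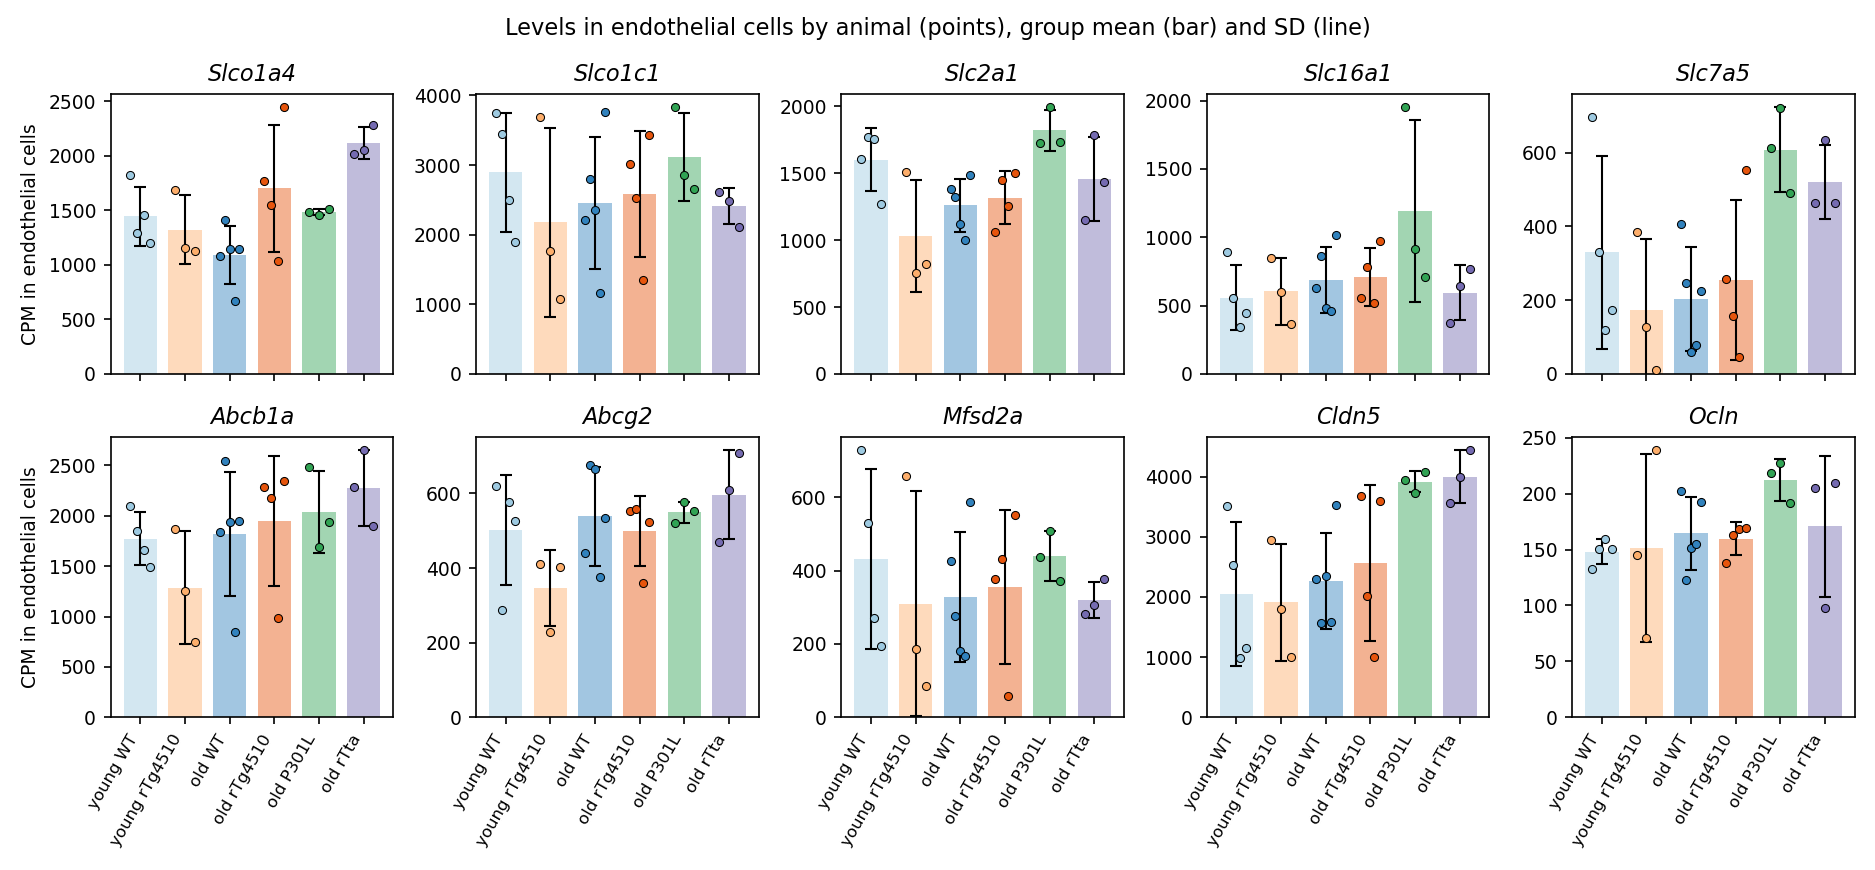
Level of each gene in endothelial cells in CPM, with 1 point per animal, bars at the group mean and lines of 1 SD. The old rTg4510 and old WT points overlap for each of the 10 genes, whereas Cldn5 in the old P301L and old rTta animals (3563 to 4443) lies above all 5 old WT animals (1566 to 3524). The share of all genes that separate in this way was not counted.

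In young rTg4510 against young WT animals, 0 of 10 members and 0% of all genes were called, with 1 member and 236 genes below an unadjusted p of 0.05 and 0 of either by DESeq2. That member was Slc2a1, at 1511, 754 and 822 CPM in young rTg4510 and at 1602, 1772, 1757 and 1271 in young WT animals. The highest young rTg4510 animal lay inside the WT range and the other 2 below it, and the log2 difference was −0.66 ± 0.29 (SE; 95% interval −1.24 to −0.08; edgeR adjusted p = 0.802). Differences of the other 9 members ran from −0.82 for Slc7a5 to 0.11 for Slc16a1. In old WT against young WT animals 0 of 10 members and 0% of genes were called, with 0 members and 224 genes below an unadjusted p of 0.05, and DESeq2 called 0 members. In old rTg4510 against young rTg4510 animals these were 0 of 10 and 0%, with 0 members and 200 genes below an unadjusted p of 0.05, and DESeq2 called 0 members. The change with age was also compared between genotypes: 0 of 10 members and 0% of genes were called, with 1 member, Slco1a4, and 208 genes below an unadjusted p of 0.05 (edgeR adjusted p = 0.889 for Slco1a4), and DESeq2 called 0 members. Medians over the 10 members, beside those over all genes, were −0.44 and −0.02 in the young comparison, where 2 members were positive. They were −0.13 and −0.003 in old against young WT. In old against young rTg4510 they were 0.36 and 0.01, with all 10 members positive. The members were not tested as a set. The comparisons share animals, so their values are not independent of each other.

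The P301L and rTta animals came from a separate part of the count table: 801 genes were counted only in these 6 animals and 270 only in the other 16. Their comparisons with WT or rTg4510 animals therefore cannot be told apart from the part of the table, and counts per endothelial barcode averaged 849 for P301L and 879 for rTta against 1584 in old WT animals. P301L animals were by their labels also older than all animals of the other groups, so their genotype and age cannot be told apart. In old P301L against old WT animals 0 of 10 members and 0% of genes were called, with 4 members and 331 genes below an unadjusted p of 0.05, while DESeq2 called 0 members and 3 genes. These 4 were Cldn5, Slc16a1, Slc2a1 and Slc7a5. All 10 members had a positive difference, with a median of 0.49 beside −0.01 over all genes. Slc7a5 stood at 613, 720.0 and 489 CPM in P301L and at 405, 246, 60.4, 77.3 and 224 in old WT animals. The groups did not overlap, and the log2 difference was 1.59 ± 0.75 (SE; 95% interval 0.003 to 3.18; edgeR adjusted p = 0.591). Cldn5 stood at 3940.2, 3728 and 4075 CPM in P301L animals, all above the highest old WT animal at 3524, with a log2 difference of 0.85 ± 0.39 (edgeR adjusted p = 0.552). Slco1a4 and Slc2a1 did not overlap either, and the remaining members did. The share of all genes without overlap was not counted in endothelial cells, and groups this small can separate by chance.

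In old rTta against old WT animals 0 of 10 members were called, and 0.279% of all genes were (11 genes). At an unadjusted p under 0.05 there were 1 member and 279 genes, and DESeq2 called 0 members. Slco1a4 was that member, at 2017, 2051 and 2283 CPM in the rTta animals against a highest old WT animal of 1412. Here too the share of all genes without overlap was not counted. Its log2 difference of 0.96 ± 0.28 (SE; 95% interval 0.40 to 1.52) had an edgeR adjusted p of 0.217, the lowest among the members in any group comparison in endothelial cells. The median over the 10 members was 0.18, beside −0.02 over all genes. Among old groups of transgenic animals, 0 of 10 members were called in rTg4510 against P301L (0% of genes, with 1 member at an unadjusted p under 0.05), rTg4510 against rTta (0.127% of genes, 0 members at an unadjusted p under 0.05) and P301L against rTta (0.0253% of genes, 1 member at an unadjusted p under 0.05). DESeq2 called 0 members in each. P301L and rTta animals share the part of the table but not the age (41 to 48 and 33 weeks), so genotype and age cannot be told apart. In this comparison Slc16a1 stood at 1955, 914 and 713 CPM in P301L and at 372, 647 and 769.6 in rTta animals. These ranges overlapped, and the log2 difference was 1.09 ± 0.39 (SE, edgeR adjusted p = 0.526).

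**Figure D3:**
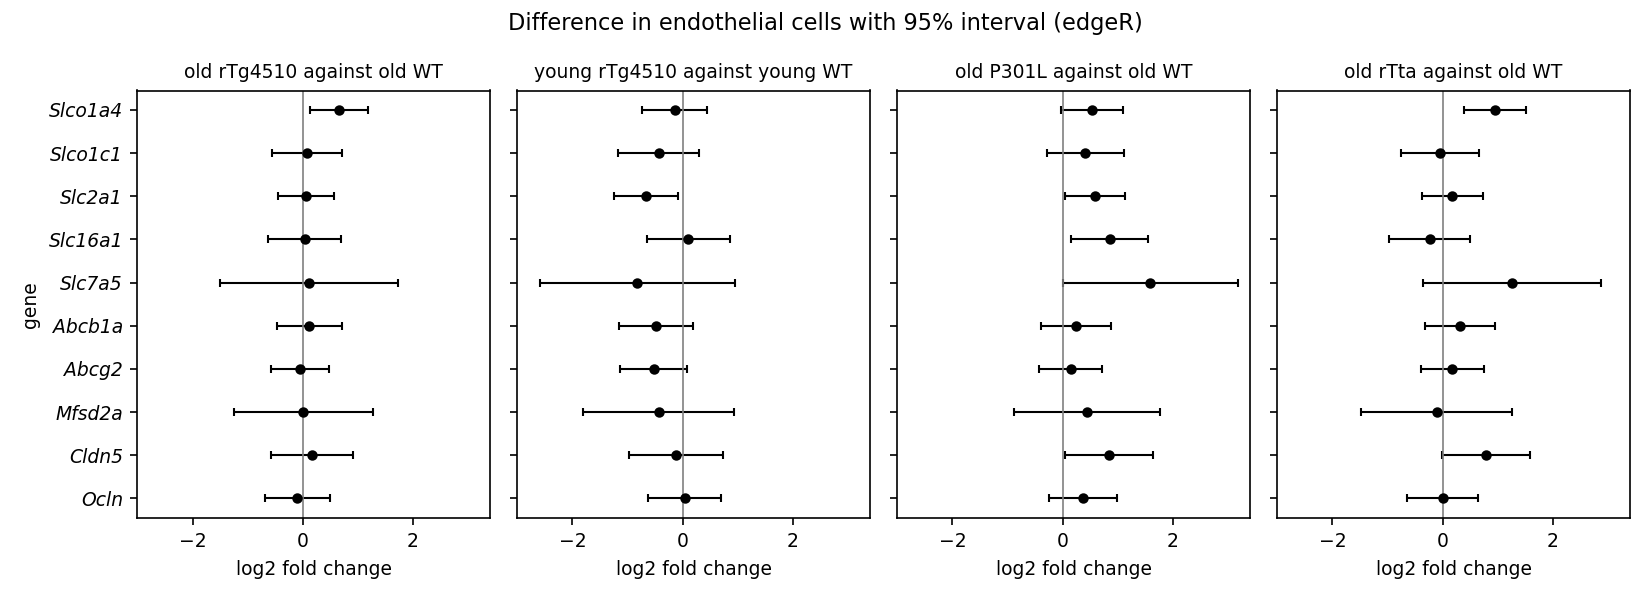
Log2 fold change of each gene in endothelial cells with its 95% interval from the edgeR fit, in 4 comparisons. The intervals of Slco1a4 lie above 0 in old rTg4510 (0.13 to 1.18) and old rTta (0.40 to 1.52) against the same 5 old WT animals, and neither passes adjustment over 3949 genes.

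Other barrier genes were read from lists of further transporters, efflux pumps, junction genes, Wnt and barrier regulators, and leak and activation genes. In endothelial cells 16 of 20, 1 of 6, 10 of 20, 12 of 18 and 7 of 13 of them were tested. In each of the 10 comparisons 0 of them were called higher and 0 lower. In old rTg4510 against old WT animals 2 further transporters and 1 leak and activation gene had an unadjusted p under 0.05, beside 183 of all 3949 genes. In old P301L against old WT animals 6 of the 16 further transporters did, beside 331 of all genes, and all 16 had a positive difference, with a median of 0.60 on the log2 scale. There 1 efflux pump, 1 junction gene, 3 Wnt and barrier regulators and 1 leak and activation gene had an unadjusted p under 0.05.

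In astrocytes 4 members had enough counts to be tested: Slco1c1, Slc2a1, Slc16a1 and Mfsd2a. In old rTg4510 against old WT animals 0 of the 4 were called beside 0.531% of all genes, and 2 members had an unadjusted p under 0.05. Astrocyte Slco1c1 stood at 245, 426, 204 and 256 CPM in old rTg4510 animals and at 439, 414, 641, 381 and 889.9 in old WT animals. Of the old rTg4510 animals 3 lay below all WT animals and 1 inside their range, and the log2 difference was −0.89 ± 0.30 (SE; 95% interval −1.49 to −0.29; edgeR adjusted p = 0.259). Slc16a1, the other member, stood at 156, 80.0, 120.0 and 84.2 CPM in astrocytes of old rTg4510 and at 63.9, 41.4, 51.7, 110.2 and 62.0 in those of old WT animals. These ranges overlapped, and the log2 difference was 0.73 ± 0.33 (SE; edgeR adjusted p = 0.514). For Slco1c1, young animals stood at 467, 453 and 194 CPM in rTg4510 and at 1021, 744, 549 and 408 in WT, with a log2 difference of −0.83 ± 0.34 (edgeR adjusted p = 0.791). In the young comparison 0 of 4 members and 0% of genes were called, with 1 member at an unadjusted p under 0.05. In old WT against young WT these were 0 of 4, 0% and 0 members, and in old against young rTg4510 animals 0 of 4, 0% and 1 member, Slc16a1, at 0.79 ± 0.39 (edgeR adjusted p = 0.824). Over all cells of the hippocampus, 0 of 10 members were called in old rTg4510 against old WT (0.185% of genes), young rTg4510 against young WT (0%), old against young WT (0%) and old against young rTg4510 (0.161%), and 0 members had an unadjusted p under 0.05 in any of these. DESeq2 called 0 members in each of these 8 comparisons. Over all cells, fewer endothelial cells and less RNA of a gene per cell cannot be told apart. Counts of other classes enter these sums as well. For Slco1c1, endothelial cells held on average 56.0% ± 21.6 (SD, n = 22) of the counts of an animal and 5.00% in the lowest. Choroid plexus cells of old rTg4510 replicate 3 alone held 4245 Slco1c1 counts.

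Endothelial cells made up 5.43% ± 1.82 (SD, n = 4) of the kept cells in old rTg4510 and 6.27% ± 1.70 (n = 5) in old WT animals, a difference of −0.838 percentage points (exact two-sided permutation test, p = 0.508, where the smallest possible p is 0.0159). Without old rTg4510 replicate 3, whose library held 543 choroid plexus cells, the difference was 0.055. The shares were 13.2% ± 2.27 (n = 3) in the P301L group, 8.96% ± 1.65 (n = 3) in the rTta group, 5.98% ± 1.99 (n = 4) in young WT and 4.84% ± 1.86 (n = 3) in young rTg4510 animals.

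Members were also compared within the endothelial cells of each animal. Some endothelial barcodes carried counts of Bmx, Gkn3, Sema3g, Efnb2, Hey1 and Vegfc, genes of arterial endothelium, of which Gkn3 had the highest level at 848 ± 934 CPM (SD, n = 22) over endothelial cells. Barcodes with at least 3 such counts (181) were compared with the other endothelial barcodes of the same animals, in edgeR with the animal as a term, over 1394 genes without those 6 and in the 21 animals that had at least 3 such barcodes (old WT replicate 2 had 0 and was left out). This split is a range of a score and not a cell type: 88 barcodes lay 1 count below the limit and 36 at it. The comparison was added after pooled values of the members on both sides had been seen, so its p-values are not independent evidence. In it 6 of the 10 members were called lower, beside 13.1% of all genes called lower, and 1 was called higher, beside 11.4% called higher. Called genes made up 24.5% of all in either direction.

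Slc7a5 changed most, by −2.79 on the log2 scale (SE 0.36; 95% interval −3.52 to −2.07; edgeR adjusted p = 8.25e-08). In the arterial-list-rich barcodes it held 23 counts in all, with 0 counts in 12 of 21 animals and a median of 0 CPM, against 826 counts and a median of 379.8 CPM in the other endothelial barcodes. It was lower in 19 of 21 animals and higher in 2. Slc16a1 stood at 230.3 ± 173 CPM in the arterial-list-rich barcodes and 834 ± 404 in the others (SD, n = 21). This is −2.16 ± 0.22 on the log2 scale (SE; adjusted p = 5.46e-10 in edgeR), and it was lower in 20 of 21 animals. Mfsd2a had medians of 73.4 and 404 CPM. Its difference was −1.49 ± 0.28 (adjusted p = 6.77e-05 in edgeR), and it was lower in 19 of 21 animals. The amino acid, lactate and lysophospholipid carriers were thus the members with the largest differences between the 2 sets of barcodes.

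The other 3 called lower changed less: Abcg2 by −0.52 ± 0.15 (SE, edgeR adjusted p = 0.00504), Slco1a4 by −0.47 ± 0.12 (0.00113) and Abcb1a by −0.36 ± 0.11 (0.011) on the log2 scale. They were lower in 18, 18 and 16 of 21 animals. Slc2a1 went the other way, with 1794 ± 601 CPM in the arterial-list-rich and 1319 ± 328 in the other barcodes. The difference was 0.39 ± 0.11 on the log2 scale (adjusted p = 0.00438 in edgeR), and it was higher in 19 of 21 animals. Its call depended on the low-count filter: without that filter the median of the same genes was −0.42 in place of −0.02, and Slc2a1 was at −0.085 (edgeR adjusted p = 0.756), still above that median. With a limit of 5 arterial counts its change was 0.33 (edgeR adjusted p = 0.0691). Cldn5, at 2532 ± 1214 and 2778 ± 1192 CPM, Slco1c1, at 2645 ± 1259 and 2619 ± 870.2, and Ocln, at 140.2 ± 96.6 and 172 ± 45.1, were not called. Their 95% intervals were −0.37 to 0.06, −0.32 to 0.14 and −0.59 to 0.30 on the log2 scale. Without the low-count filter Cldn5 was called at −0.64 (edgeR adjusted p = 5.39e-04) and Slco1c1 at −0.57 (edgeR adjusted p = 0.00287). Abcg2, Slco1a4 and Abcb1a stood at −0.93, −0.94 and −0.83 there. These values include the shift of the median to −0.42 in that fit, so they are not larger changes relative to other genes. With the limit of 5 arterial counts Slc7a5 changed by −4.70, Mfsd2a by −2.28 and Slco1a4 by −0.76.

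**Figure D4:**
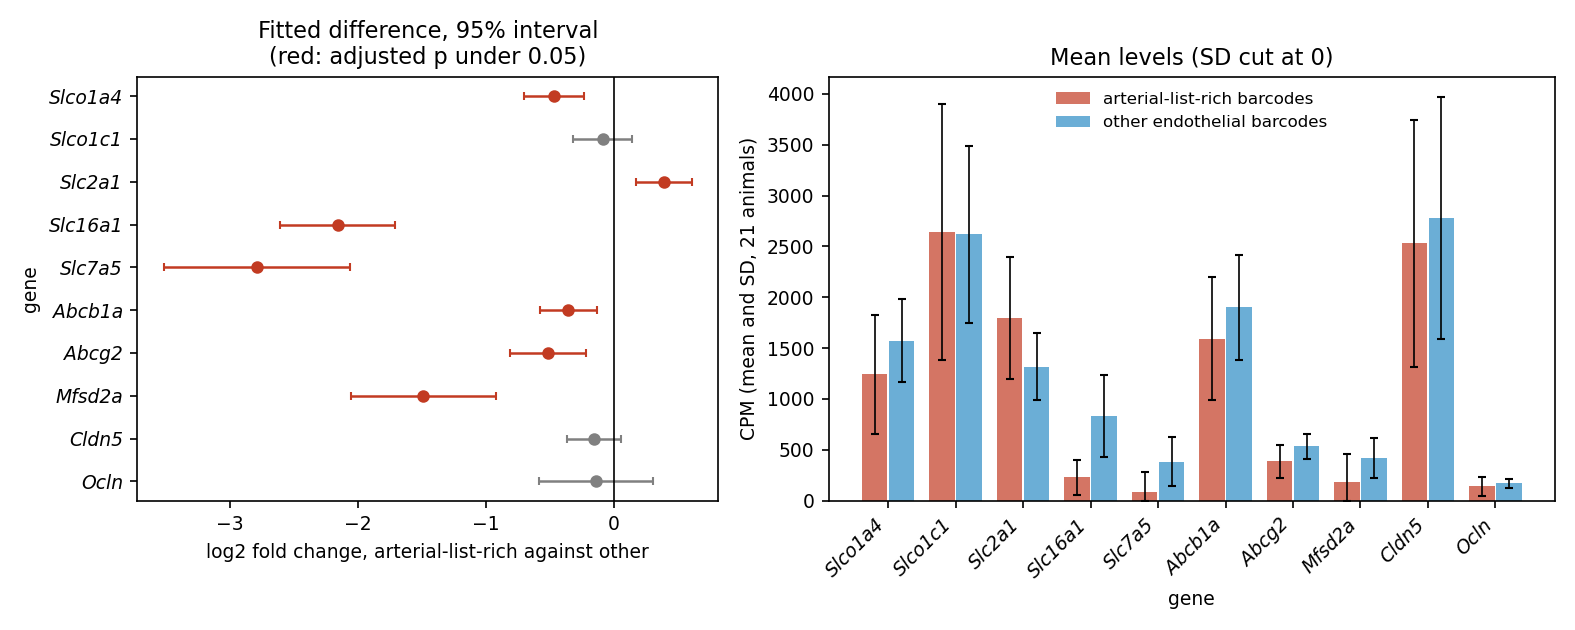
Left, log2 fold change of each gene between arterial-list-rich and other endothelial barcodes of the same animals with its 95% interval, red where the adjusted p is under 0.05. Right, mean CPM and SD over 21 animals in the same sets, where Slc7a5, Slc16a1 and Mfsd2a are lower in arterial-list-rich barcodes and Slc2a1 is higher (1794 against 1319).

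Further barrier genes differed between the same sets of barcodes, 17 being called in all. Their counts stand beside 13.1% of all genes called lower and 11.4% called higher. Of 12 further transporters tested, 9 were called lower and 0 higher, with a median log2 change of −1.03. Tfrc, the transferrin receptor that imports iron, changed by −2.61 ± 0.20 (SE, edgeR adjusted p = 8.78e-18), from 764 to 166 CPM, and was lower in 21 of 21 animals. The amino acid carriers Slc38a5 and Slc38a3 changed by −3.06 ± 0.32 and −1.57 ± 0.24, the iron exporter Slc40a1 by −1.98 ± 0.25 and the organic anion carrier Slc22a8 by −1.47 ± 0.20. Slc38a5 is also a marker of venous endothelium, and the part of vessel type in its difference was not tested. Of 7 Wnt and barrier regulators tested, 2 were called higher and 1 lower. Sox17, a transcription factor of arterial specification, rose by 1.04 ± 0.14, and Lef1, a transcription factor of the Wnt pathway, fell by 1.11 on the log2 scale (SE 0.18). Of 4 leak and activation genes tested, 3 were called higher and 1 lower, with a median of 0.55. Those higher were the adhesion molecules Vcam1 (2.69 ± 0.38) and Icam2 (0.62 ± 0.17) and the caveolar protein Cav1 (0.49 ± 0.17), named here after their values were seen, and the 1 lower was Ctla2a, at −3.01 ± 0.32. Of the 7 junction genes tested 1 was called higher and 0 lower, and 0 of the 6 further efflux pumps had enough counts to be tested.

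Values of other kinds moved with this split. Median counts per barcode were 1839 in the arterial-list-rich barcodes and 891.5 in the others. With both sides limited to barcodes of at least 1000 counts, Slc16a1 changed by −2.13, Mfsd2a by −1.47 and Slc2a1 by 0.46, while Slc7a5 and Ocln had too few counts to be tested. Mural markers summed to 4033 ± 3851 CPM in the arterial-list-rich and 1441 ± 1001 in the other barcodes (SD, n = 21) and were higher in 16 of 21 animals, although the median barcode of either set held 0 mural counts. Without barcodes that held at least as many marker counts of another class, Slc7a5 changed by −3.07, Slc16a1 by −2.33 and Mfsd2a by −1.53. Fibroblast markers summed to 1111 ± 2242 and 148 ± 203 CPM and were higher in 14 of 21 animals. Markers of neurons summed to 982 ± 732 and 2917 ± 1473 CPM, and those of astrocytes, which carry Slco1c1, Slc16a1 and Mfsd2a, to 1037 ± 766 and 2126 ± 855 CPM. Each was higher in the arterial-list-rich barcodes in only 1 of 21 animals. A list of 12 dissociation response genes, among them Fos and Jun, summed to 20232 ± 12644 and 16986 ± 8407 CPM. It was higher in the arterial-list-rich barcodes in 11 of 21 animals. Its median share of the counts of a barcode was 0.827% there and 0.434% in the others. The part of these values in the differences was otherwise not tested.

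Across animals, levels of the members in endothelial cells went with the counts per endothelial barcode, which ran from 799.6 in an old rTta to 3922 in an old rTg4510 animal. Over the 22 animals, on log2 values, Pearson's r was −0.88 for Cldn5 (permutation p = 1e-05, the smallest that 100000 resamples can give; adjusted over 20 relations 2e-04), with Spearman's rho −0.89 (permutation p = 1e-05), and −0.83 without the 2 animals farthest from the median. For Slc7a5 r was −0.80 (permutation p = 2e-05, adjusted 2e-04), with rho −0.84 and −0.78 without those 2 animals. For Ocln r was −0.15 (permutation p = 0.509, adjusted 0.536), with rho −0.23 and −0.36 without those 2 animals. Of the 10 members, 9 had an adjusted permutation p under 0.05. Only the members were examined in this way, so the share of all genes with such a relation is not known. CPM and counts per barcode share the total count, and the 6 P301L and rTta animals all lay at 942 or below, with Cldn5 at 3563 to 4443 CPM. Among the other 16 animals r was −0.80 for Cldn5, −0.72 for Slc7a5 and 0.16 for Ocln. The animal numbers in the labels fall into separate ranges, which the labels do not explain. With each value centred within these ranges it was −0.80, −0.65 and 0.10, and among the 6 P301L and rTta animals alone it was −0.66, 0.58 and −0.54, so that the sign for Slc7a5 was the opposite there. In those 6 animals r was also above 0 for Slco1a4 (0.08), Slco1c1 (0.05), Slc2a1 (0.12) and Abcb1a (0.35). It stayed below 0 for Slc16a1, Abcg2 and Mfsd2a. For Slc2a1 the relation did not hold within the ranges, with r −0.45 over all animals (permutation p = 0.0363, adjusted 0.0454; rho −0.45) and −0.094 within them.

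**Figure D5:**
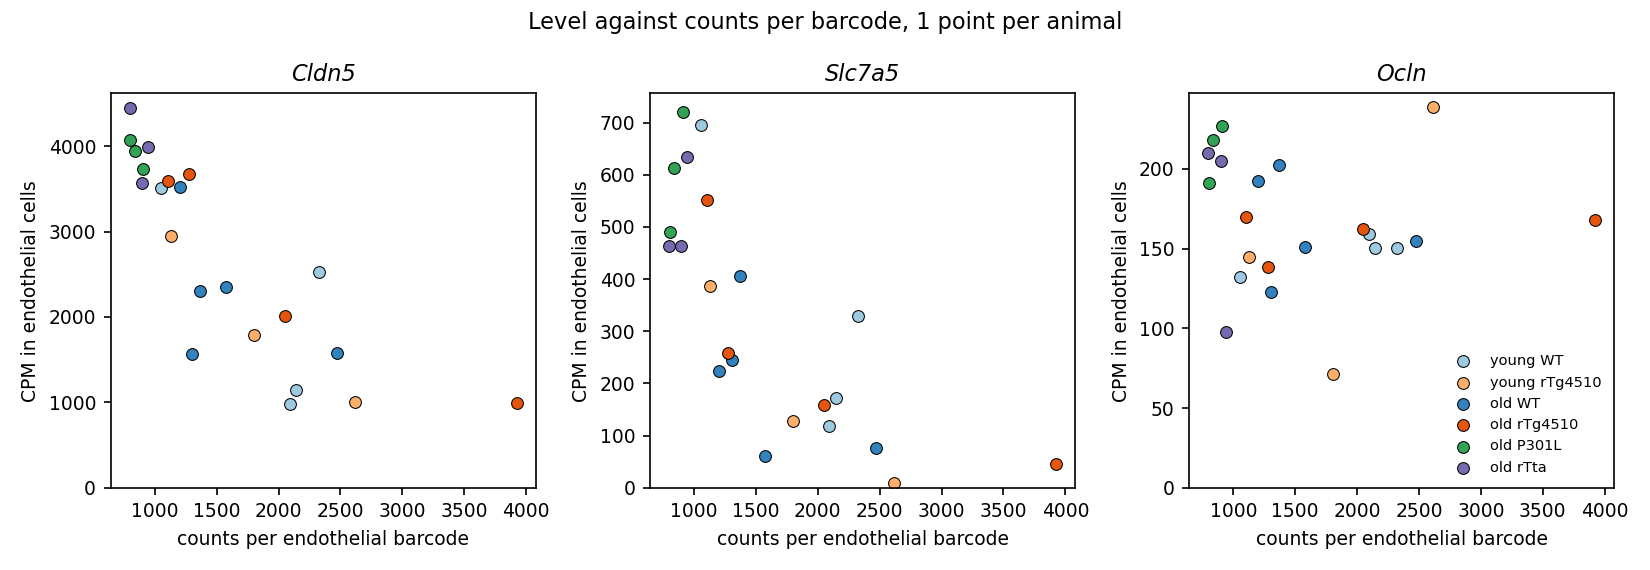
Level in endothelial cells (CPM) against counts per endothelial barcode, 1 point per animal coloured by group, for Cldn5, Slc7a5 and Ocln. Cldn5 falls from 4443 to below 1000 along the axis, and Ocln shows no such slope (r = −0.15).

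The share of arterial-list-rich barcodes among endothelial barcodes also differed between animals, from 0% to 30.0% with a median of 8.67%. It was 13.6% ± 8.75 (SD, n = 5) in old WT, 12.9% ± 11.3 (n = 4) in old rTg4510, 3.88% ± 0.749 (n = 3) in the P301L group and 7.28% ± 3.66 (n = 3) in the rTta group. The limit of 3 arterial counts is not scaled to depth, so this share also depends on the counts per barcode. Those averaged 1584 in old WT, 2089 in old rTg4510, 849 in P301L and 879 in rTta animals. Over the 22 animals the summed arterial list in endothelial cells had r = −0.60 with Slc7a5 (permutation p = 0.00318, adjusted 0.00795; rho −0.68; −0.72 without the 2 farthest animals) and r = 0.11 with Ocln (permutation p = 0.61, adjusted 0.61; rho 0.16; 0.01 without the 2 farthest). Centred within the ranges of animal numbers the values were −0.46 and 0.24. Animals with the lowest Slc7a5, young rTg4510 replicate 3 at 9.56 CPM and old rTg4510 replicate 3 at 46.4 CPM, had shares of 30.0% and 29.5%. They also had the highest counts per endothelial barcode of all animals, at 2615 and 3922. The mural list summed to 554 to 1643 CPM in the endothelial cells of P301L animals and to at most 1364 in those of rTta animals, against 1167 to 5679 in old WT animals. In the same cells the dissociation response list summed to 8780 to 10926 CPM in rTta and 14312 to 26428 in P301L animals. In old WT animals it summed to 12977 to 43049 CPM. The part of these values in the differences between groups was not tested.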

How the data were processed

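Drop-seq libraries of the hippocampus of 22 mice were read from 1 table that the authors deposited, which holds raw counts, whole numbers per gene and cell barcode. Per the submitters' processing notes, reads were demultiplexed with bcl2fastq 2.18.0.12 and aligned with STAR (given as 2.2) to mm10. The counting tool, annotation and filters are not given in the sources used here, nor whether molecular identifiers were collapsed. Only the 12614 genes counted in all 22 animals were tested.

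Barcodes with at least 300 counts were kept, scaled to 10000 counts and clustered with scanpy 1.11.5 (2000 variable genes, 40 components, 15 neighbours, Leiden resolution 1) without the barrier genes. Of 28 clusters, those at least 2-fold above the rest for at least 3 markers of a class (20 CPM added) were named, unless another unrelated class passed at least 90% of its markers. A name was also dropped where another unrelated class had more markers among the genes furthest above the rest in that cluster. In all 1480 cells (5.44%) stayed unnamed. No doublet caller was run. Counts were summed per animal and class (at least 20 cells) and tested with edgeR 4.0.16 (TMM, filterByExpr, robust quasi-likelihood) in R 4.3.3. Alternatives included DESeq2 1.42.0. The scripts were tested on simulated data. P-values measure the spread between animals.

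The members and gene lists were chosen with earlier results of these data known. Described are all 10 members, at most 8 other barrier genes per comparison by adjusted p, and the 5 genes with the most similar class profile among genes of at least 50 CPM in a class. In the arterial comparison Vcam1, Icam2 and Cav1, all higher, were named beyond these 8. Slc7a1 and Slc3a2, both lower, had smaller adjusted p-values than these and were given by count only.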

Additional observations from a re-analysis of the deposited data

Results flagged for a closer look

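In endothelial cells of old rTg4510 replicate 3, Abcb1a stood at 985 CPM, far from the other 3 old rTg4510 animals, of which the nearest was at 2179 CPM. Its gap to the nearest animal was 0.876 of the range of the group. In all 33 sets of 4 or 5 animals were looked at in this way and 1 stood out, where chance gives about 1 in 20. In the same library 543 choroid plexus cells were counted, its counts per endothelial barcode were the highest of all animals at 3922, and 29.5% of its endothelial barcodes were arterial-list-rich. The dissociation response list summed to 40466.5 CPM in its endothelial cells, against 11215.7, 11013.7 and 13504.5 in the other 3 old rTg4510 animals. The part of these values in the low Abcb1a level was not tested.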

How the results depend on the processing

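In the 18 comparisons between groups, each of the 307 alternative fits (DESeq2, other size factors, no low-count filter, only the groups compared, other cell and count minimums, other clusterings, without mixed barcodes, a term for the range of animal numbers, and each animal left out in turn) also called 0 members. No paired analysis was possible because the labels give no replicate numbers, and the numbers used here only name animals. Counts of all genes called did move. Over the whole hippocampus, edgeR and DESeq2 called 23 and 103 genes in old rTg4510 against old WT (0 with a term for the range of animal numbers, 0 to 104 without 1 animal), 20 and 162 in old against young rTg4510 (0 to 180 without 1 animal), 0 and 5 in young rTg4510 against young WT, and 0 and 10 in old against young WT. In astrocytes, 29 genes in old rTg4510 against old WT became 15 to 53 by setting and 3 to 26 without 1 animal, and 0 in old against young rTg4510 became up to 16. In endothelial cells, 11 in rTta against WT became 7 to 27 (3 to 11 without 1 animal), 5 in rTg4510 against rTta 4 to 35, and 1 in P301L against rTta up to 53. The other endothelial comparisons, at 0, reached at most 12. The difference in endothelial share ran from −1.35 to 0.055 percentage points when each animal was left out, and reversed only without old rTg4510 replicate 3, which had the lowest share of that group (2.75% against 5.83% to 6.58%). The p ran from 0.314 to 1 over the alternatives. All 80 alternative levels by class stayed within 1 SD or the counting interval.

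The arterial comparison and its alternatives were chosen after seeing the data. Slc16a1 kept a log2 change of −2.53 to −2.02, Slc7a5 of −4.70 to −2.56 and Mfsd2a of −2.28 to −1.42, all called, where tested. The count of members called lower was 5 to 8, and 6 without each of the 21 animals in turn. The 8 came without the low-count filter, where the median of the same genes was −0.42. All genes called there numbered 342, with 198 among barcodes of at least 1000 counts and 1944 without the low-count filter. Slc2a1 reversed to −0.085 in that same fit, still above its median. The cause was not tested. Slc7a5 at 0 counts in most arterial-list-rich libraries limits how large its difference can be read to be.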
